A study of Mus musculus with 13 samples.

Results

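Microarrays measured the RNA of eosinophils that had been sorted from the lamina propria of the mouse small intestine. The comparison described here sets the 1 array labelled Ahr KO Clec4a4- against the 1 WT Clec4a4- and the 1 WT Clec4a4+ array. These are 3 of the 13 arrays of the study. The other 10 hold mCherry+ and mCherry- eosinophils of Clec4a4-KI mCherry reporter mice, 5 arrays each. The Ahr KO eosinophils come from Ahr KO mice and were sorted as Clec4a4-, and the WT eosinophils come from WT mice and were sorted as Clec4a4- or as Clec4a4+. All 3 samples are small intestinal lamina propria eosinophils, and no treatment is given. The labels give neither the knockout allele, nor whether the deletion is limited to a cell type, nor the strain, age or number of mice behind a sample. Per the labels' protocol, the WT and Ahr KO arrays were made to sort genes into those that depend on AHR and those that do not.

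A gene was counted where the Ahr KO array lay 2-fold or more from both WT arrays in the same direction. The higher value of each pair also had to reach 4.80, the median of all gene values on a log2 intensity scale. Of 25003 genes, 12788 passed that filter against both WT arrays, and 83 met the rule by the values as measured. Of these, 35 lay higher in the Ahr KO array (0.274% of the genes past the filter) and 48 lay lower (0.375%). Each gene is described by the smaller of its 2 log2 differences. Since each group is a single array, there is no error and no test, and both differences share the Ahr KO array. Fold values against a level under 4.80 are bounds computed from 4.80, since such a level may be background. Of the 48 lower genes 12, and of the 35 higher genes 11, had such a level. For some of them the bound is under 2-fold, such as 1.23-fold for Ppbp against WT Clec4a4- and 1.14-fold for Sptssb against both WT arrays.

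The aryl hydrocarbon receptor, the product of Ahr, is a transcription factor that stays in the cytosol with chaperones until a ligand binds. The ligand-bound receptor enters the nucleus, pairs with ARNT and binds DNA elements with the core GCGTG in front of genes such as Cyp1a1, Cyp1b1, Ahrr, Tiparp and Nqo1. In the intestine its ligands come from diet and microbes, and it is known for its part in intraepithelial lymphocytes and innate lymphoid cells. Eosinophils are resident in the small intestinal lamina propria in the healthy animal. Clec4a4 encodes a C-type lectin receptor with an inhibitory motif in its cytoplasmic tail.

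The Ahr signal did not set the array labelled Ahr KO apart. The brighter Ahr probe set stood at 11.12 in Ahr KO Clec4a4-, against 11.08 in WT Clec4a4- and 11.11 in WT Clec4a4+ eosinophils. The second Ahr probe set stood at 7.43 in Ahr KO Clec4a4-, against 7.83 in WT Clec4a4- and 7.60 in WT Clec4a4+ eosinophils. Where these probes lie relative to the deleted part is not given, so the Ahr level does not check the label, and Ahr KO is used here as the name the labels give. Of the 3 measured genes on either side of Ahr on chromosome 12, none met the rule. Agr2, a protein disulfide isomerase of secretory cells, lay furthest, with 9.52 in Ahr KO Clec4a4-, 10.85 in WT Clec4a4- and 9.89 in WT Clec4a4+ eosinophils. The other five neighbours (Hdac9, Prps1l1, Snx13, Agr3 and Tspan13) differed by less than 1 on the log2 scale from each WT array.

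Over all probe sets, the 3 arrays had median log2 intensities of 4.73 to 4.75 and correlated pairwise at 0.982 to 0.986. Their number limits the precision. Eosinophil markers were present on all of them: Siglecf, a lectin of eosinophils, stood at 8.67, 8.57 and 8.20 in Ahr KO Clec4a4-, WT Clec4a4- and WT Clec4a4+ eosinophils, and Ccr3, the eotaxin receptor, stood at 9.41, 9.81 and 9.61. Epx, which encodes eosinophil peroxidase, was close to the median on all 3 arrays, with 4.41 in Ahr KO Clec4a4-, 4.88 in WT Clec4a4- and 4.79 in WT Clec4a4+ eosinophils. In that order of arrays, the 21 eosinophil identity genes averaged 8.35, 8.51 and 8.32 and the 9 granule protein genes 5.10, 5.17 and 4.82. Some markers of other cells were bright too: Retnlg (neutrophil list) stood at 12.18, 11.89 and 11.82 and Jchain (B and plasma cell list) at 9.33, 9.54 and 9.69. Those lists averaged 5.81, 5.72 and 5.42, and 5.56, 5.64 and 5.58. The part of other cells' RNA in these arrays was not tested. Xist was high (10.69, 10.91 and 10.78) and 4 Y-linked genes lay under 4.80 on each array.

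Among the known AHR target genes, Tiparp and Nqo1 lay lower than both WT arrays, and the cytochrome genes were near background everywhere. Tiparp, an ADP-ribosyltransferase that AHR induces and that in turn restrains AHR, stood at 8.01 in Ahr KO Clec4a4-, against 11.57 in WT Clec4a4- and 11.52 in WT Clec4a4+ eosinophils. That is 11.8-fold and 11.4-fold lower, while the WT arrays were nearly level with each other. Nqo1, a quinone reductase induced by both AHR and NRF2, stood at 4.25 in Ahr KO Clec4a4-, against 7.19 in WT Clec4a4- and 6.38 in WT Clec4a4+ eosinophils. The Ahr KO value is under the median, so Nqo1 was at least 5.23-fold and at least 2.98-fold lower. Serpinb2, plasminogen activator inhibitor type 2, stood at 9.61 in Ahr KO Clec4a4-, against 11.87 in WT Clec4a4- and 11.00 in WT Clec4a4+ eosinophils, 4.79-fold and 2.63-fold lower.

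Ahrr, the AHR repressor and itself an AHR target, followed the Clec4a4- arrays instead. It stood at 4.44 in Ahr KO Clec4a4-, against 4.98 in WT Clec4a4- and 7.14 in WT Clec4a4+ eosinophils. It was thus at least 5.07-fold lower than the Clec4a4+ array and close to background in both Clec4a4- arrays. Cyp1a1 stood at 4.41, 4.58 and 4.85 and Cyp1b1 at 4.46, 4.70 and 4.92 in Ahr KO Clec4a4-, WT Clec4a4- and WT Clec4a4+ eosinophils. Their order was the same, lowest in Ahr KO and highest in Clec4a4+, but the values straddle the median and carry little information.

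Over the whole list of AHR pathway genes and targets, 26 were measured and 17 passed the filter. Of the 17, 3 met the rule as lower (Tiparp, Nqo1 and Serpinb2) and 0 as higher, beside 0.375% and 0.274% of all genes past the filter. The median difference of the 26 was -0.14 against WT Clec4a4- and -0.20 against WT Clec4a4+, beside 0 and 0 over all genes. Arnt, the receptor's nuclear partner, did not meet the rule and stood at 7.92, 7.85 and 7.98 in Ahr KO Clec4a4-, WT Clec4a4- and WT Clec4a4+ eosinophils. Of 28 NRF2 and antioxidant genes, only Nqo1 met the rule, and their median differences were -0.11 and 0.10.

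**Figure D1:**
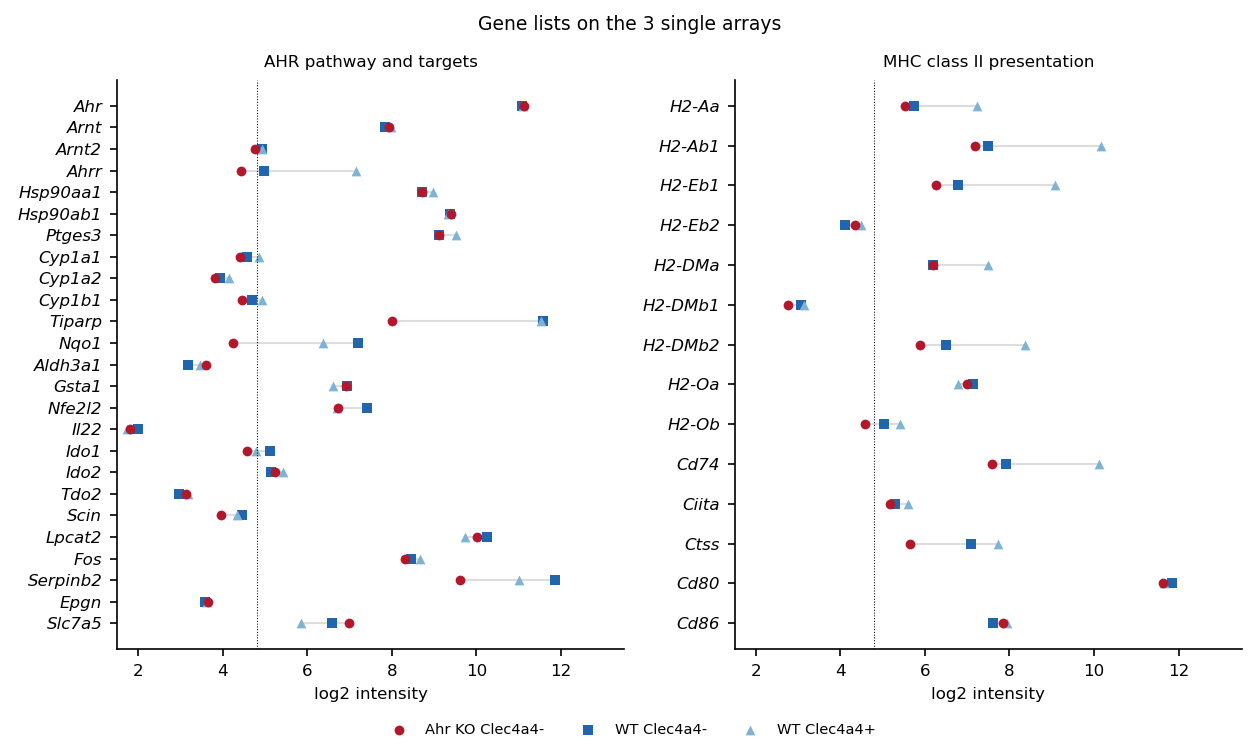
Log2 intensity (x axis) of AHR pathway genes and targets (left) and of MHC class II presentation genes (right) on the single arrays of Ahr KO Clec4a4- (circles), WT Clec4a4- (squares) and WT Clec4a4+ eosinophils (triangles); the dotted line is the median of all gene values, 4.80. Tiparp, Nqo1 and Serpinb2 have the circle left of both WT symbols by 1 or more, while 7 MHC class II presentation genes have it left of the triangle by 1 or more.

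Promoter sequences are shown for 3 of the lowest genes, Tiparp, Cxcl3 and Nqo1, and for Ahrr, to set the letters around the start site beside these values. Each runs from 250 bases before to 50 bases after the gene's start in RefSeq (GRCm38.p6), on the gene's strand, with the core GCGTG in capitals, or CACGC where it lies on the other strand.
Tiparp, chr3:65528197-65528496, plus strand: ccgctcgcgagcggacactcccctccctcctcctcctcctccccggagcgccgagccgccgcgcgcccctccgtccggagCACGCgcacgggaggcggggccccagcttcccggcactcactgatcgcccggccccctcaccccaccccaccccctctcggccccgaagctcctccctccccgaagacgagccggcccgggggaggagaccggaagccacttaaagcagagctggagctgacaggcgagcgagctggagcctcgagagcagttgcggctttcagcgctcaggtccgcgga
Ahrr, chr13:74292282-74292581, minus strand: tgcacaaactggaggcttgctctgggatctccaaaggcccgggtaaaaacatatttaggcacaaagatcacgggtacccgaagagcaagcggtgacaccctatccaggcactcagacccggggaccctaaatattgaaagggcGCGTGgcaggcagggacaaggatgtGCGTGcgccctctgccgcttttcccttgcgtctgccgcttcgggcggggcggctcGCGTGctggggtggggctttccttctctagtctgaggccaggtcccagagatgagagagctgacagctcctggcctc
Cxcl3, chr5:90785851-90786150, plus strand: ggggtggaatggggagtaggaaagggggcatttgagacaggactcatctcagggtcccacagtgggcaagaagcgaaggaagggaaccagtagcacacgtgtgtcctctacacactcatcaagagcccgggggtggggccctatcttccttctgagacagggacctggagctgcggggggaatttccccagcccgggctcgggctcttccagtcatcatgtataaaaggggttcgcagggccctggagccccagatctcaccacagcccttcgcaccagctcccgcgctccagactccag
Nqo1, chr8:107403156-107403455, minus strand: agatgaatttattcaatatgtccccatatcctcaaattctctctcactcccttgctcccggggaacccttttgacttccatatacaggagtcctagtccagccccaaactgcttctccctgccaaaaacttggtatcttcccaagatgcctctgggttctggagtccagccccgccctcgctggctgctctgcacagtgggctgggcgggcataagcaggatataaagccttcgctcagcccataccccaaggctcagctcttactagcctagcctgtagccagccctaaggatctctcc
Tiparp has 1 match, on the other strand, beginning 170 bases before the start. Ahrr has 3 matches on the printed strand, beginning 107, 82 and 27 bases before it. The Cxcl3 and Nqo1 windows hold no match. Of the 48 lower genes, 38 had a promoter in the table and 15 of these (39.5%) held GCGTG on either strand. Of the 35 higher genes, 23 had a promoter and 7 of these (30.4%) held it. The share was 53.2% among the 9683 genes past the filter that had a promoter and 35.2% among all 27025 promoters. The longer form TNGCGTG, which includes the shorter one, was present in 4 of the 38 lower and 1 of the 23 higher genes, beside 9.04% of the genes past the filter. A match is a description of these letters and not a binding site.

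Cxcl3, a chemokine that draws neutrophils, stood at 7.95 in Ahr KO Clec4a4-, against 11.55 in WT Clec4a4- and 11.31 in WT Clec4a4+ eosinophils, 12.1-fold and 10.3-fold lower. The nearby Ppbp, a platelet chemokine precursor, stood at 3.58 in Ahr KO Clec4a4-, against 5.11 in WT Clec4a4- and 7.14 in WT Clec4a4+ eosinophils. It was at least 1.23-fold and at least 5.05-fold lower. The chemokine receptor Ccr1 stood at 7.73 in Ahr KO Clec4a4-, against 9.43 in WT Clec4a4- and 9.22 in WT Clec4a4+ eosinophils, 3.25-fold and 2.80-fold lower. Only Cxcl3 of 26 chemokines and only Ccr1 of 28 chemoattractant receptors met the rule; the chemokine list does not hold Ppbp.

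The beta chains of the receptors for IL-3, IL-5 and GM-CSF, cytokines that sustain eosinophils, were both lower. Csf2rb, the common beta chain, stood at 7.55 in Ahr KO Clec4a4-, against 9.24 in WT Clec4a4- and 8.90 in WT Clec4a4+ eosinophils, 3.21-fold and 2.53-fold lower. Csf2rb2, the IL-3-specific beta chain of mice, stood at 8.17 in Ahr KO Clec4a4-, against 9.97 in WT Clec4a4- and 9.40 in WT Clec4a4+ eosinophils, 3.50-fold and 2.36-fold lower. The genes lie side by side and are close in sequence, so the probes may not separate them. They were the only 2 of 21 eosinophil identity genes to meet the rule. The alpha chain of the IL-5 receptor, Il5ra, stood at 8.24 in Ahr KO Clec4a4-, 8.08 in WT Clec4a4- and 7.82 in WT Clec4a4+ eosinophils. Csf1, the macrophage colony-stimulating factor, was 2.24-fold and 2.12-fold lower, with 8.35 in Ahr KO Clec4a4-, 9.51 in WT Clec4a4- and 9.43 in WT Clec4a4+ eosinophils.

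**Figure D2:**
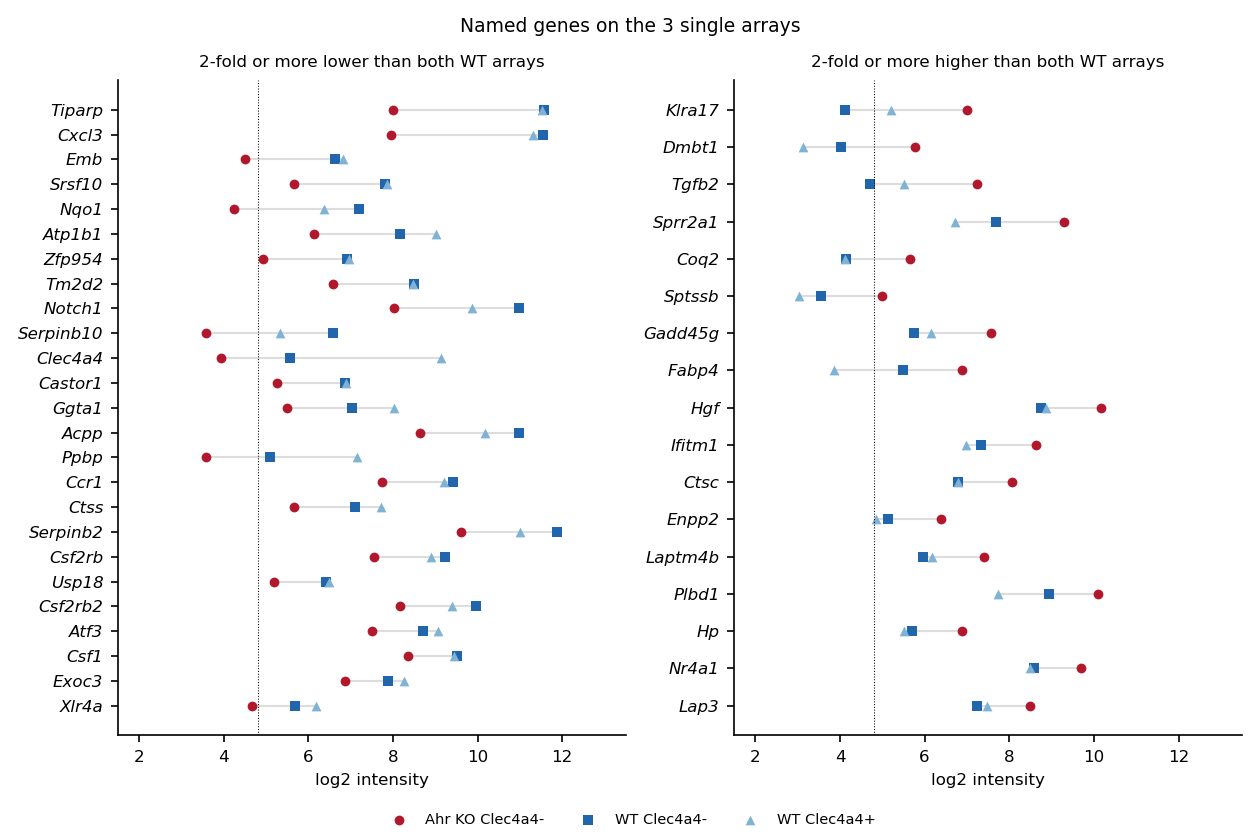
Log2 intensity (x axis) of genes 2-fold or more lower (left) or higher (right) than both WT arrays, with circles for Ahr KO Clec4a4-, squares for WT Clec4a4- and triangles for WT Clec4a4+, 1 array each; the dotted line is 4.80, the median of all gene values. Tiparp and Cxcl3 show the widest gaps among the lower genes with the WT arrays close together, and Clec4a4 shows the widest gap between the WT arrays.

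Notch1, a receptor of cell-to-cell signalling, stood at 8.04 in Ahr KO Clec4a4-, against 10.99 in WT Clec4a4- and 9.88 in WT Clec4a4+ eosinophils, 7.73-fold and 3.59-fold lower. Serpinb10, a protease inhibitor of blood cells that lies beside Serpinb2, stood at 3.58 in Ahr KO Clec4a4-, against 6.58 in WT Clec4a4- and 5.32 in WT Clec4a4+ eosinophils, at least 3.43-fold and at least 1.43-fold lower. In Notch1, Serpinb2 and Serpinb10 alike, the Ahr KO array was lowest and WT Clec4a4- highest. Acpp, an acid phosphatase, showed that order too, with 8.63 in Ahr KO Clec4a4-, 10.99 in WT Clec4a4- and 10.16 in WT Clec4a4+ eosinophils.

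Clec4a4 itself, the antigen of the sort, stood at 3.93 in Ahr KO Clec4a4-, against 5.56 in WT Clec4a4- and 9.14 in WT Clec4a4+ eosinophils. The distance to the Clec4a4+ array is what the sort selected for. Against the WT Clec4a4- array, sorted the same way, it was at least 1.70-fold lower. Ggta1, an alpha-galactosyltransferase, and Atp1b1, the beta subunit of the sodium pump, had the same order. Ggta1 stood at 5.49, 7.03 and 8.03 and Atp1b1 at 6.13, 8.16 and 9.01 in Ahr KO Clec4a4-, WT Clec4a4- and WT Clec4a4+ eosinophils.

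For 30 of the 48 lower genes, the WT arrays lay within 0.5 of each other on the log2 scale. Emb, an adhesion protein, stood at 4.50 in Ahr KO Clec4a4-, against 6.63 in WT Clec4a4- and 6.83 in WT Clec4a4+ eosinophils. Srsf10, a splicing factor, stood at 5.67, against 7.80 in WT Clec4a4- and 7.86 in WT Clec4a4+ eosinophils. Zfp954, a zinc finger gene, stood at 4.92, against 6.93 in WT Clec4a4- and 6.96 in WT Clec4a4+ eosinophils. Zinc finger genes have close relatives, so which of them the probes measured is uncertain. Tm2d2, a transmembrane protein, stood at 6.58 in Ahr KO Clec4a4-, against 8.49 in WT Clec4a4- and 8.47 in WT Clec4a4+ eosinophils. Castor1, an arginine sensor upstream of mTORC1, was 3.03-fold and 3.07-fold lower. That the Ahr KO array stands apart in this group follows from the rule and the limit of 0.5. The share of all genes past the filter with WT arrays this close was not counted.

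Further lower genes came from the lists for protein breakdown, stress and interferon. Ctss, a lysosomal protease that trims the invariant chain of MHC class II, stood at 5.66 in Ahr KO Clec4a4-, against 7.10 in WT Clec4a4- and 7.73 in WT Clec4a4+ eosinophils. Atf3, a stress-induced transcription factor, was 2.30-fold and 2.95-fold lower. Usp18, which removes ISG15 from proteins, was 2.36-fold and 2.47-fold lower. Each of these was the only lower gene of its list or lists.

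Gm15759 is a predicted gene that the naming rule leaves out and that is named here after its values were seen. It stood at 3.56 in Ahr KO Clec4a4-, against 7.14 in WT Clec4a4- and 8.65 in WT Clec4a4+ eosinophils, at least 5.06-fold and at least 14.4-fold lower. In RefSeq its span lies within that of Aox2, so the 2 transcripts may share signal. A second such gene, 1700016P03Rik, stood at 5.53, against 7.85 in WT Clec4a4- and 9.36 in WT Clec4a4+ eosinophils, 4.98-fold and 14.2-fold lower. The rule left out the names of 6 of the 48 lower and 4 of the 35 higher genes.

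The 35 higher genes were fewer than the 48 lower ones. The median of the smaller difference, taken by size, was 1.16 for the higher and 1.40 for the lower genes, both taken from the values as measured. With values under 4.80 raised to that bound, 3 higher and 11 lower genes were 3-fold or more from both WT arrays. By the values as measured, Mir200c had the largest smaller difference of the higher genes, 2.03. It is a small RNA that the naming rule leaves out, named here after its values were seen. It stood at 5.57 in Ahr KO Clec4a4-, against 3.45 in WT Clec4a4- and 3.54 in WT Clec4a4+ eosinophils, at least 1.70-fold higher than both. Klra17, a lectin-like receptor of the Ly49 family, stood at 7.01 in Ahr KO Clec4a4-, against 4.11 in WT Clec4a4- and 5.19 in WT Clec4a4+ eosinophils, at least 4.62-fold and 3.52-fold higher. The next gene past the filter on chromosome 6, Klra2, also met the rule, but Ly49 genes are near-identical copies and the probes may not separate them. Tgfb2, a cytokine of the TGF-beta family, stood at 7.24 in Ahr KO Clec4a4-, against 4.70 in WT Clec4a4- and 5.51 in WT Clec4a4+ eosinophils, at least 5.42-fold and 3.31-fold higher. It was the only higher gene among 31 measured cytokines and growth factors, and Csf1 was the only lower one; that list does not hold Hgf.

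Hgf, hepatocyte growth factor, stood at 10.16 in Ahr KO Clec4a4-, against 8.75 in WT Clec4a4- and 8.87 in WT Clec4a4+ eosinophils, 2.67-fold and 2.44-fold higher. Gadd45g, a growth arrest and DNA damage gene, was 3.52-fold and 2.68-fold higher, with 7.57 in Ahr KO Clec4a4-, 5.76 in WT Clec4a4- and 6.15 in WT Clec4a4+ eosinophils. Nr4a1, an immediate early nuclear receptor, stood at 9.69, against 8.59 in WT Clec4a4- and 8.48 in WT Clec4a4+ eosinophils. It was the only higher gene of the NF-kB and immediate early list, and Atf3 the only lower one of its 38 genes. Ctsc, the protease that activates granule serine proteases, stood at 8.06, against 6.79 in WT Clec4a4- and 6.80 in WT Clec4a4+ eosinophils. In the 26 lysosome genes Ctsc was thus higher while Ctss was lower. In Hgf, Nr4a1 and Ctsc the WT arrays were nearly level.

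Among the remaining higher genes, Fabp4 and Plbd1 also separated the WT arrays by the values as measured. Fabp4, a fatty acid carrier, stood at 6.87 in Ahr KO Clec4a4-, against 5.48 in WT Clec4a4- and 3.86 in WT Clec4a4+ eosinophils, 2.63-fold and at least 4.20-fold higher. Plbd1, a phospholipase B-like protein, stood at 10.11, against 8.94 in WT Clec4a4- and 7.74 in WT Clec4a4+ eosinophils. Ifitm1, an interferon-induced membrane protein, was 2.44-fold and 3.14-fold higher, and Hp, haptoglobin, 2.24-fold and 2.55-fold. Enpp2, the enzyme that makes lysophosphatidic acid, was 2.39-fold and 2.89-fold higher, and Laptm4b, a lysosomal membrane protein, 2.73-fold and 2.37-fold.

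Sprr2a1 and Dmbt1 are genes of epithelial cells, and they are given with the epithelial markers beside them. Sprr2a1 stood at 9.30 in Ahr KO Clec4a4-, against 7.69 in WT Clec4a4- and 6.71 in WT Clec4a4+ eosinophils, and Dmbt1 at 5.78, against 4.02 in WT Clec4a4- and 3.12 in WT Clec4a4+ eosinophils. Sprr2a1 has near-identical relatives, and with the mean of its probe sets the smaller difference was 0.82. Of 25 enterocyte, goblet and epithelial markers, 0 met the rule in either direction, and their mean was 5.50 in Ahr KO Clec4a4-, 5.62 in WT Clec4a4- and 5.34 in WT Clec4a4+ eosinophils. The part of epithelial RNA in these 2 genes was not tested. Coq2, of ubiquinone synthesis, and Sptssb, of sphingolipid synthesis, lay under the median in both WT arrays and were at least 1.80-fold and at least 1.14-fold higher.

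Of 34 gene lists, 14 held a gene that met the rule and 20 held none. The lists with none were heat shock, granule proteins, siglecs and inhibitory receptors, immunomodulatory molecules, eicosanoid synthesis, integrins and adhesion, glycolysis and hypoxia, cell cycle, cytosolic ribosomal proteins and sex-linked genes. They also included all 10 lists of markers of other cells. A list with none lacks a 2-fold difference from both WT arrays, which does not mean that its genes lack signal. Serpinb2 was the only member among 33 matrix and protease genes, Usp18 among 27 interferon genes, Clec4a4 among 19 C-type lectins and Fabp4 among 27 lipid genes. The 28 measured ribosomal protein genes had a median difference of 0.32 against WT Clec4a4- and 0.39 against WT Clec4a4+, beside 0 over all genes. Rpl14, for example, stood at 10.51 in Ahr KO Clec4a4-, 9.98 in WT Clec4a4- and 9.72 in WT Clec4a4+ eosinophils.

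**Figure D3:**
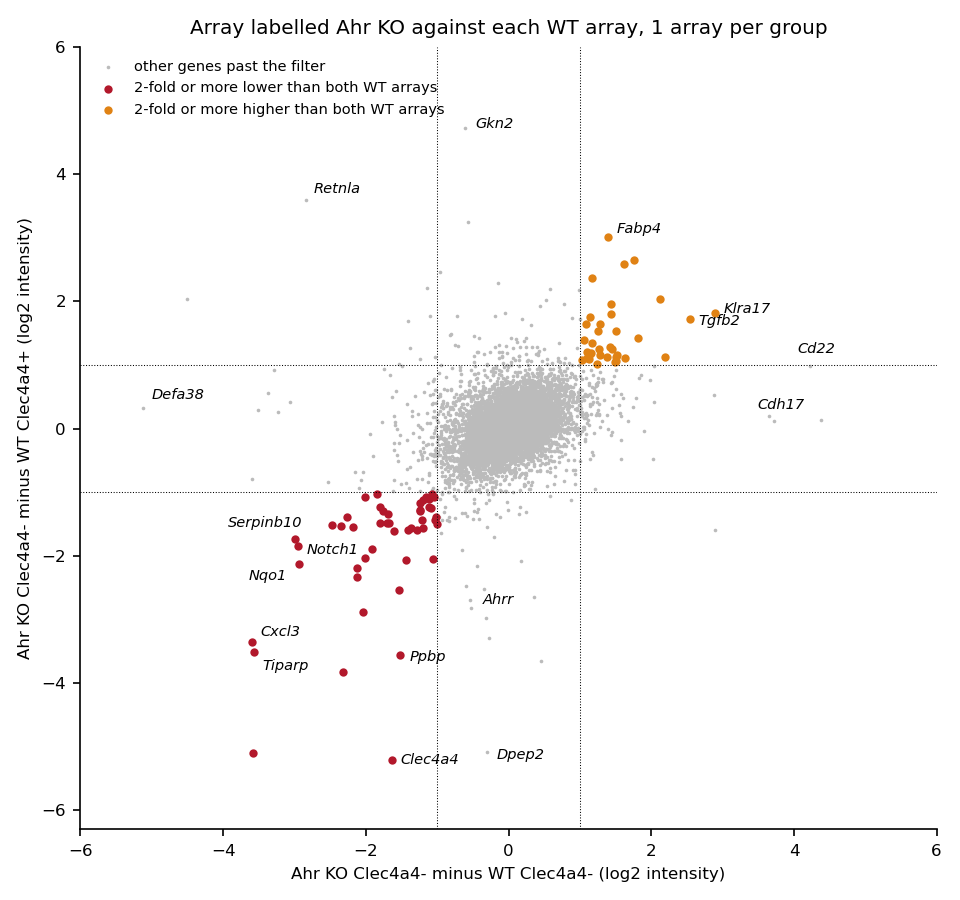
Each point is a gene past the filter, plotted by its log2 difference of Ahr KO Clec4a4- minus WT Clec4a4- (x axis) and minus WT Clec4a4+ (y axis), with dotted lines at 2-fold; 1 array per group. The 48 lower genes fill the lower left corner and the 35 higher genes the upper right, while Defa38, Cdh17, Dpep2 and Gkn2 lie along an axis, apart from 1 WT array alone.

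Most genes that were 2-fold from 1 WT array were not 2-fold from the other. Against WT Clec4a4-, 149 genes lay higher (1.14% of 13082 past the filter) and 193 lower (1.48%). Against WT Clec4a4+, 124 lay higher and 124 lower (0.947% each of 13098). These larger sets hold genes on which the Ahr KO array sided with 1 WT array.

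With WT Clec4a4+ it shared low alpha-defensins. Defa38, an antimicrobial peptide gene of Paneth cells, stood at 5.92 in Ahr KO Clec4a4-, 11.04 in WT Clec4a4- and 5.59 in WT Clec4a4+ eosinophils. Of 18 Paneth cell markers, 11 were 2-fold or more lower in Ahr KO than in WT Clec4a4-, beside 1.48% of all genes past that filter. Against WT Clec4a4+ 0 were lower, beside 0.947%, and Defa17 was higher. The list's mean was 5.23 in Ahr KO Clec4a4-, 7.11 in WT Clec4a4- and 4.91 in WT Clec4a4+ eosinophils. The high defensin signal thus sat in the WT Clec4a4- array. Defensin genes are near-identical copies, so single members are uncertain. The part of Paneth cell RNA in the differences from this array was not tested.

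The Ahr KO array also sided with WT Clec4a4+ on genes that were high. Cd22, an inhibitory siglec best known from B cells, stood at 9.35 in Ahr KO Clec4a4-, 5.12 in WT Clec4a4- and 8.36 in WT Clec4a4+ eosinophils, 18.7-fold and 1.98-fold higher. Of the 16 B and plasma cell markers, 0 were 2-fold apart from either WT array. The list does not hold the immunoglobulin light chain locus Igk, named here after its values were seen, whose brightest probe set stood at 11.03 in Ahr KO Clec4a4-, 9.52 in WT Clec4a4- and 9.91 in WT Clec4a4+ eosinophils. Another Igk probe set went the other way, with 3.39, 4.68 and 7.69 in the same arrays. The part of B-lineage RNA in the Cd22 values was not tested. Cdh17, an intestinal cadherin, stood at 9.21, 5.49 and 9.09, and Cd7, a lymphoid membrane protein, at 9.31, 7.27 and 8.89 in Ahr KO Clec4a4-, WT Clec4a4- and WT Clec4a4+ eosinophils. Mrgpra2a, Lncpint, Gbp4 and Sirpb1a were also 2-fold higher than in WT Clec4a4- and not 2-fold from WT Clec4a4+. Hbb-bt, an adult beta globin, stood at 6.36, 2.71 and 6.17 in the same arrays, while its second probe set, at 3.23, 3.27 and 3.46, lay under the median on each.

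With WT Clec4a4- it shared low values of genes that were high in the Clec4a4+ array. Dpep2, a membrane dipeptidase, stood at 4.64 in Ahr KO Clec4a4-, 4.95 in WT Clec4a4- and 9.74 in WT Clec4a4+ eosinophils, at least 30.6-fold lower than in the Clec4a4+ array. Apol7c was at least 23.4-fold lower than in that array, the lectin Cd209a at least 7.17-fold, the lectin Clec4b1 at least 1.64-fold and the neuromedin U receptor Nmur1 9.78-fold. Of 14 MHC class II presentation genes, 7 were 2-fold lower than in the Clec4a4+ array and 1, Ctss, lower than in WT Clec4a4-. Among all genes past the filter, 0.947% were lower than in the Clec4a4+ array and 1.48% lower than in WT Clec4a4-. H2-Ab1, a class II chain, stood at 7.18 in Ahr KO Clec4a4-, 7.49 in WT Clec4a4- and 10.16 in WT Clec4a4+ eosinophils. H2-Eb1 stood at 6.26, 6.78 and 9.07 in the same arrays. Of 14 dendritic cell markers, 1 was 2-fold lower than in the Clec4a4+ array, and the list's mean was 5.36 in Ahr KO Clec4a4-, 5.32 in WT Clec4a4- and 5.77 in WT Clec4a4+ eosinophils; its part in the class II values was not tested.

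The gastrokines Gkn2 and Gkn1, the lectin Clec12a and the resistin-like gene Retnla were high in both Clec4a4- arrays. Gkn2 stood at 9.18 in Ahr KO Clec4a4-, 9.80 in WT Clec4a4- and 4.45 in WT Clec4a4+ eosinophils, at least 20.8-fold higher than in the Clec4a4+ array. Clec12a stood at 8.12, 8.69 and 4.88, and S100a8, an alarmin of neutrophils and other myeloid cells, at 5.73, 6.70 and 3.27. Retnla took a middle position, with 8.30 in Ahr KO Clec4a4-, 11.15 in WT Clec4a4- and 4.71 in WT Clec4a4+ eosinophils. It was 7.18-fold lower than in WT Clec4a4- and at least 11.3-fold higher than in WT Clec4a4+. Il6 and Cd34 were highest in Ahr KO Clec4a4- but 2-fold only from the Clec4a4+ array.

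**Figure D4:**
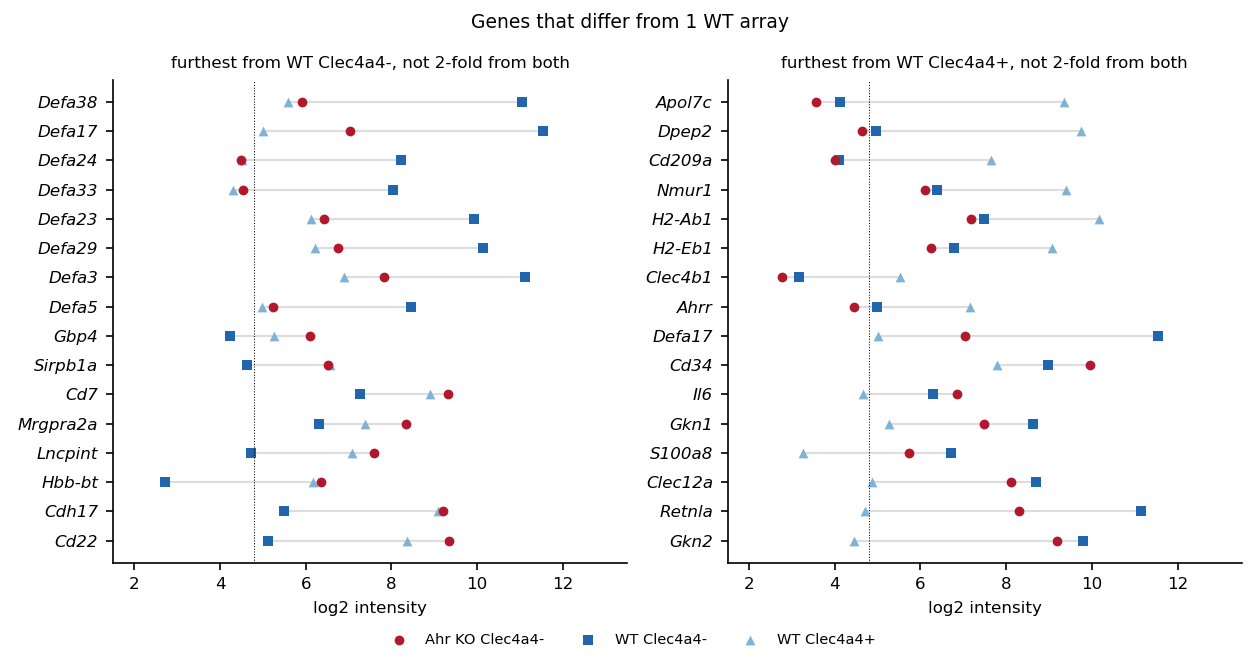
Log2 intensity (x axis) on the 3 single arrays of the genes furthest from WT Clec4a4- (left) or WT Clec4a4+ (right) that were not 2-fold from both; circles are Ahr KO Clec4a4-, squares WT Clec4a4- and triangles WT Clec4a4+, and the dotted line is 4.80. On the left the defensins are high and Cd22, Cdh17 and Hbb-bt low in WT Clec4a4- alone, and on the right WT Clec4a4+ is the array that stands apart for Dpep2, H2-Ab1 and Gkn2.

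By chromosome, the share of tested genes that met the rule ran from 0 of 380 on chromosome 16 to 1.46% of 615 on chromosome 6. There were 6 pairs of genes of the rule that had no other gene past the filter between them. Genes that did not pass the filter may lie between them, and no expected number of pairs was computed. The lower pairs were Serpinb2 and Serpinb10 on chromosome 1, Ppbp and Cxcl3 on chromosome 5, Zbtb25 and Zbtb1 on chromosome 12, Csf2rb2 and Csf2rb on chromosome 15, and Zfp52 and Zfp948 on chromosome 17. The higher pair was Klra17 and Klra2. At the edge of the rule, the smaller difference was -1.01 for Xlr4a and Exoc3 inside it and -0.97 for Scimp and Tiam1 outside it. On the higher side it was 1.01 for Lap3 inside it, and 0.99 for Slc25a25 and Cd22 outside it.

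Of the 83 genes, 7 had further probe sets, 17 in all, and 8 of these differed in the same direction from both WT arrays. Only 1 of the 17, of Tiparp, did so by 2-fold, and it lay under the median. For Emb, Asb2, Xlr4a, Serpinb1a, Igk and Sprr2a1, the mean of all probe sets ended the 2-fold difference. Tiparp kept a smaller difference of -2.34 by that mean. A further 7 probe sets without a gene name met the rule, 4 higher and 3 lower.

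The reporter arrays have the replicates that the single arrays lack, although on another array model and in other mice. The 25 epithelial markers averaged 8.17 in mCherry+ and 7.89 in mCherry- of replicate 1, and 9.94 to 10.76 in the other mCherry+ and 10.03 to 10.87 in the other mCherry- arrays; the part of epithelial RNA in this spread was not tested. Of the 83 genes, 74 were measured there, 43 of them lower and 31 higher in the Ahr KO array. The standard deviation within groups, as limma estimated it, had a median of 0.50 over the 74 genes and of 0.24 over all genes. The 74 genes had passed a filter on signal and were brighter there, with a median level of 7.46, beside 5.38 over all genes.

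The same arrays also show how the 74 genes differ between mCherry+ and mCherry- eosinophils. In limma's fit without the replicate number, 1 of the 74 was called at an adjusted p under 0.05, as lower in mCherry+ cells, beside 0.355% of all 21395 genes (0.145% higher and 0.21% lower). With the replicate number as a block, 14 of the 74 (18.9%) were called, 7 higher and 7 lower in mCherry+ cells, beside 1.76% of all genes (1.01% higher and 0.748% lower). The 14 include Clec4a4, whose reporter the cells were sorted by. The 74 genes are brighter than all genes, and no share over equally bright genes was taken with the block. Of the genes lower in Ahr KO, 5 were higher and 7 lower in mCherry+ cells, and of those higher in Ahr KO, 2 were higher and 0 lower. The median mCherry difference was 0.01 over the 43 and 0.005 over the 31, beside -0.01 over all genes.

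Serpinb10 was the gene called in both fits. It stood at 3.96, 3.06, 3.70, 3.50 and 2.90 in mCherry+ replicates 1 to 5 and at 6.01, 5.34, 4.88, 6.20 and 6.46 in mCherry- replicates. The groups do not overlap. The log2 difference was -2.36 (SE 0.30), lower in 5 of 5 pairs, with an adjusted p of 0.00779 by limma and 0.00608 with the block. The mCherry+ values lie under the median of the reporter arrays. In mCherry- replicates 2 and 3 Serpinb10 also lay under the median of gene values on the same array, 5.39 and 5.38. Such levels may be background, so the size of the difference is uncertain.

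Cxcl3, Nqo1, Notch1 and Serpinb2 were called lower in mCherry+ eosinophils with the block and not without it. Cxcl3 stood at 11.23, 11.57, 11.33, 10.28 and 11.51 in mCherry+ and at 11.94, 11.98, 12.01, 11.12 and 11.92 in mCherry- replicates 1 to 5. In each pair mCherry+ was lower, though replicate 4 was low in both groups (log2 difference -0.61, limma's adjusted p of 0.608, and 0.00849 with the block). Nqo1 averaged 5.79 ± 0.57 in mCherry+ and 6.75 ± 0.67 in mCherry- eosinophils (SD, n = 5 each), with limma's adjusted p of 0.488, and 0.0132 with the block. Notch1 averaged 8.51 ± 0.54 in mCherry+ and 9.45 ± 0.53 in mCherry- eosinophils (SD, n = 5 each), with limma's adjusted p of 0.391, and 0.011 with the block. Serpinb2 averaged 11.22 ± 0.61 in mCherry+ and 12.15 ± 0.39 in mCherry- eosinophils (SD, n = 5 each), with limma's adjusted p of 0.347, and 0.00496 with the block. Each was lower in mCherry+ in 5 of 5 pairs, which a call with the block largely implies.

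Clec4a4, Ggta1 and Hgf were called higher in mCherry+ eosinophils with the block. Clec4a4, the gene that carries the reporter, averaged 9.18 ± 0.62 in mCherry+ and 7.52 ± 0.62 in mCherry- eosinophils (SD, n = 5 each), with limma's adjusted p of 0.0804, and 0.00205 with the block. Ggta1 averaged 9.25 ± 0.34 in mCherry+ and 8.30 ± 0.59 in mCherry- eosinophils (SD, n = 5 each), with limma's adjusted p of 0.305, and 0.013 with the block. Hgf averaged 7.97 ± 0.43 in mCherry+ and 6.98 ± 0.62 in mCherry- eosinophils (SD, n = 5 each), with limma's adjusted p of 0.368, and 0.0353 with the block. The other six, named after their values were seen, were Dtx4, Abi3, Dmxl2 and Il13ra1, higher in mCherry+, and Asb2 and St3gal5, lower.

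Tiparp did not pass the test between the reporter groups in either fit. It averaged 10.93 ± 0.32 in mCherry+ and 10.82 ± 0.33 in mCherry- eosinophils (SD, n = 5 each), a log2 difference of 0.11 (SE 0.19) and higher in mCherry+ in 5 of 5 pairs, with limma's adjusted p of 0.98, and 0.559 with the block. Ahr itself averaged 11.10 ± 0.44 in mCherry+ and 10.09 ± 0.64 in mCherry- eosinophils (SD, n = 5 each), with limma's adjusted p of 0.347, and 0.00234 with the block. Cyp1b1, near background on the single arrays, averaged 9.11 ± 0.57 in mCherry+ and 6.30 ± 0.30 in mCherry- eosinophils (SD, n = 5 each), with limma's adjusted p of 0.00117, and 0.000917 with the block. Ahrr and Cyp1a1 were called in neither fit. Ahrr averaged 7.04 ± 0.40 in mCherry+ and 6.12 ± 0.41 in mCherry- eosinophils, with limma's adjusted p of 0.21, and 0.111 with the block. Cyp1a1 averaged 4.12 ± 0.33 and 4.11 ± 0.32, with limma's adjusted p of 0.999, and 0.994 with the block. The tables come from different array models, so levels are not compared between them.

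**Figure D5:**
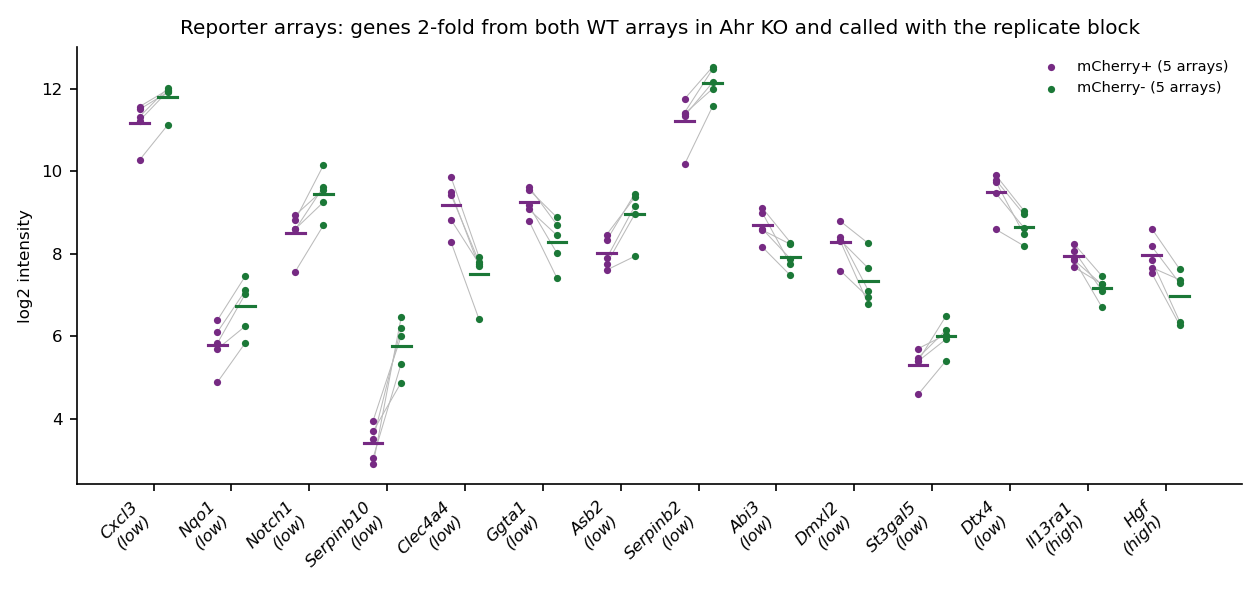
Log2 intensity (y axis) on the reporter arrays of the 14 genes 2-fold or more from both WT arrays in the Ahr KO array and called between mCherry+ (left column of each gene) and mCherry- (right column) with the replicate block; points are arrays (5 per group), bars are means and grey lines join arrays of 1 replicate number, and low or high gives the side of the Ahr KO array. In Serpinb10, Clec4a4 and Il13ra1 the groups do not overlap, and the share of all genes without overlap was not counted. Within each of the 14 genes all 5 lines run the same way, which largely follows from choosing them by the fit with the block.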

How the data were processed

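RNA was measured on 13 arrays, 1 each of Ahr KO Clec4a4-, WT Clec4a4- and WT Clec4a4+ eosinophils and 5 each of mCherry+ and mCherry- eosinophils. Values are log2 intensities as deposited, made with RMA per the submitters' processing notes, with no version given in the sources used here. Single and reporter arrays are of 2 array models, each with its own table and normalization, so differences were taken within a table; the series matrix held the same values. Probe sets were named by Entrez identifier or accession through RefSeq (GRCm38.p6), which left 1160 of 28360 without a gene, and the brightest probe set of a gene over the arrays of its table was used (25003 and 21395 genes).

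No test was made on the 3 single arrays, which were compared at 2-fold with the filter at 4.80. The reporter arrays were tested with limma 3.58.1 (R 4.3.3; intensity trend, robust, two-sided), with Benjamini-Hochberg adjustment over all genes, after a check on simulated data. The titles call the arrays biological replicates, but no label ties them to mice, so p-values rest on the spread between the arrays alone, which may be technical. Deviations of arrays with the same replicate number correlated at 0.659, 0.165, 0.171, 0.527 and 0.199 for numbers 1 to 5. Of the 10 reporter arrays, 9 deviated most like the array of the other group with their own number. The number was taken to pair the samples on that ground, although no label says so. Values with it as a block are given too.

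Genes were named by a rule: the AHR genes and markers above, the 15 highest and 15 lowest, up to 4 per list (2 where none met the rule), the 8 highest and 8 lowest against a single WT array, those called in the reporter arrays, Ahr's neighbours and the edge of the rule. Not all are printed, and some are not reported here. Predicted genes, small RNAs, olfactory receptors and immunoglobulin segments were left out. The genes, the 34 lists and the rules were chosen with earlier results of these data known. Alternatives were other filters, thresholds, scaling and probe set rules, and for the reporter arrays the block, left-out arrays and other moderation.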

Additional observations from a re-analysis of the deposited data

Results flagged for a closer look

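In the reporter arrays, 38 groups of 5 arrays were examined (19 genes in mCherry+ and mCherry- cells) for 1 array far from the other four, by Dixon's criterion, which by chance marks about 1 group in 20. It marked 8, and each time the array was replicate 4, which lay low. The 38 groups are read from the same arrays, and 14 of the 19 genes were chosen by the fit with the block. The marks are thus not independent, and their number cannot be set against 1 in 20. In mCherry+ replicate 4, Cxcl3 stood at 10.28 (others 11.23 to 11.57), Notch1 at 7.57 (others 8.59 to 8.94) and Serpinb2 at 10.17 (others 11.35 to 11.76). St3gal5 stood at 4.59 (others 5.40 to 5.71), Ahr at 10.32 (others 11.22 to 11.41) and Cyp1b1 at 8.12 (others 9.11 to 9.51) in that array. In mCherry- replicate 4, Cxcl3 stood at 11.12 (others 11.92 to 12.01) and Clec4a4 at 6.42 (others 7.70 to 7.93). No cause was tested.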

How the results depend on the processing

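At 3-fold, by the values as measured, 5 genes were higher and 14 lower in Ahr KO than in both WT arrays, and 89 differed from WT Clec4a4- and 77 from WT Clec4a4+. Every other setting tried kept these 4 counts within 1.5 times. Of the 83 genes, 67 kept the rule with the filter at the 75th percentile, 80 with quantile normalization of the 3 arrays, 77 with the mean of probe sets and 83 without a filter. A filter on the highest of the 3 arrays, chosen after seeing the data, gave 35 higher and 50 lower. No named 2-fold difference from both WT arrays changed sign in these settings, while the smaller difference moved with the mean of probe sets to -2.34 for Tiparp, -0.69 for Emb, -0.66 for Xlr4a and 0.82 for Sprr2a1.

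In the reporter arrays 76 of 21395 genes were called without the replicate block and 376 with it (216 higher, 160 lower). The count was 40 without both arrays of replicate 1, 122 among genes at or above the median only, and 29 to 115 with 1 array left out. Of the 74 genes of the Ahr KO rule measured there, 1 was called without the block (of 76 in all) and 14 with it (of 376). The number was 2 without both arrays of replicate 1 (of 40), and 1 to 3 with 1 array left out (of 29 to 115). Serpinb10 stayed called with each array left out (limma's adjusted p 0.00346 to 0.0366), but fell outside the genes tested at or above the median. Among those, 0 of 64 genes of the rule were called, beside 122 of all 10827. In the fit over all genes, 18 of the 74 (24.3%) had an unadjusted p of limma under 0.05, beside 7.33% of all genes. Gbp8 was called without mCherry- replicate 1 (0.0199) or both arrays of replicate 1 (0.0461), Clec4a4 and Dtx4 without mCherry+ replicate 4 (0.0343 and 0.0416), and Asb2 without mCherry- replicate 4 (0.0415). The causes were not tested. On the single arrays, signal near 4.80 limits what can be read: 12 of the 48 lower and 11 of the 35 higher genes had a value under it.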
